A study of Bos indicus with 6 samples.

Results

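The genes described here are the S100 calcium-binding protein genes S100A1, S100A4, S100A8, S100A9, S100A10, S100A11, S100A12, S100A13 and S100A16, measured by RNA-seq in the isthmus of the bovine oviduct. They were taken as the entries of the expression table whose symbol equals a name on a list of 10 S100 genes. Of these, 9 had an entry among the 24616 genes listed, and S100A6 was not analysed here because no entry carries that symbol. All 9 passed the filter on low values, which asked for a mean above 5 normalized counts and above the SD over the 6 libraries.

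The samples were whole isthmus tissue from 6 multiparous Nelore (Bos indicus) beef cows, collected on day 4 after ovulation had been induced, with 1 library for each cow. Every cow had its cycle synchronized with an intravaginal progesterone (P4) device of 1 g, 2 mg of estradiol benzoate, a PGF analog at 0.5 mg and a GnRH agonist at 1 µg. In the large follicle and large corpus luteum group (LF/LCL, cows 617, 79 and 527) a PGF injection was also given at device insertion and the device was taken out 42 h before GnRH. In the small follicle and small corpus luteum group (SF/SCL, cows 856, 489215 and 97) that injection was omitted and the device stayed until 30 h before GnRH. In the full groups of the paper, LF/LCL cows had a larger follicle and higher plasma estradiol before ovulation. They also had a larger corpus luteum and higher plasma progesterone on day 4. The sequenced cows were those at the upper end (LF/LCL) and lower end (SF/SCL) of a ranking on follicle diameter, estradiol, corpus luteum area and progesterone, so they represent the extremes of each group. Since each library came from a different cow, the p-values measure the spread between cows.

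S100 proteins are small calcium sensors of the EF-hand type. Most of them form dimers that expose a binding surface when calcium rises in the cell, and through it they bind annexins, cytoskeletal proteins, calcium channels and enzymes. Some of them are also released from cells and act as alarm signals through the receptors AGER and TLR4. S100A8, S100A9 and S100A12 are known above all from neutrophils and monocytes, S100A4 from fibroblasts and other motile cells, and S100A14 and S100A16 from epithelium. The isthmus is the muscular, narrow end of the oviduct, in which sperm are held and through which the early embryo passes.

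The values are read counts per gene divided by the size factor of the library, called normalized counts below. They are not divided by gene length, so levels were compared between cows and not between genes. The recovered totals were 23899117 to 34193164 reads for each library, and 95% intervals given for a number of reads are exact Poisson intervals that cover counting error only. Every marker gene with an entry for smooth muscle (9 of 10) passed the filter, as did all those for epithelium (9 of 10), and 8 of the 9 entries for ciliated cells passed, with PIFO at 0 in every library. The library of cow 489215 stood apart from the other SF/SCL libraries. It had an array weight of 0.0477 in limma, and the median residual SD over all genes was 0.435 with it and 0.184 without it on the log2 scale. Each result is therefore given with all 6 libraries and without cow 489215, the second with 2 SF/SCL libraries and chosen after the data had been seen.

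The comparison of SF/SCL with LF/LCL asks how expression in the isthmus differs between cows with lower and higher estradiol before ovulation and progesterone on day 4. The groups also differed in the PGF injection at device insertion and in the time of device removal. Effects of treatment and of these hormones therefore cannot be told apart. S100A13 and S100A16 were higher in every SF/SCL cow than in every LF/LCL cow, and the other 7 genes overlapped between the groups. Without cow 489215, S100A1 and S100A8 also lay higher in both remaining SF/SCL cows, and S100A4 and S100A10 lay lower.

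With all 6 libraries, 0 of the 9 S100 genes passed a Benjamini-Hochberg adjusted p-value of 0.05 in limma, as did 0 of the 15387 genes tested (0.0%). At an unadjusted p-value under 0.05 limma counted 2 S100 genes, S100A13 and S100A16, both higher in SF/SCL, against 8.66% of all genes and 4.19% in that direction. DESeq2 called the same 2 genes after adjustment, where it called 2.66% of all genes and 1.32% as higher in SF/SCL. The edgeR quasi-likelihood test called 0 with adjustment and 2 without, against 8.49% of all genes without adjustment. Values of the groups were separate for 2 of 9 genes, both higher in SF/SCL, against 18.1% of all genes in either direction and 9.51% in that direction. The median log2 fold change of the 9 genes was 0.43, with 7 values above 0 and 2 below, and the median over all genes tested was -0.02. For a single gene, an exact permutation test of 3 against 3 cows cannot give a two-sided p below 0.1.

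Without cow 489215, limma called 4 of the 9 genes, S100A1, S100A13 and S100A16 higher in SF/SCL and S100A4 higher in LF/LCL, against 18.2% of the 15495 genes then tested, 10.3% as higher in SF/SCL and 7.92% as higher in LF/LCL. EdgeR called the same 4 genes, against 18.1% of all genes. At an unadjusted p-value under 0.05 both tools counted S100A10 besides these, against 33.9% of all genes in limma and 33.7% in edgeR. Values were separate for 6 of the 9 genes, against 52.0% of all genes, with 4 higher in SF/SCL (27.1% of all genes) and 2 higher in LF/LCL (24.9%). The median log2 fold change was then 0.60, beside -0.00 over all genes. The limma calls of these 4 genes were thus made only with cow 489215 left out, or with weights for libraries, although the values of S100A13 and S100A16 in that cow lay with those of their group.

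**Figure D1:**
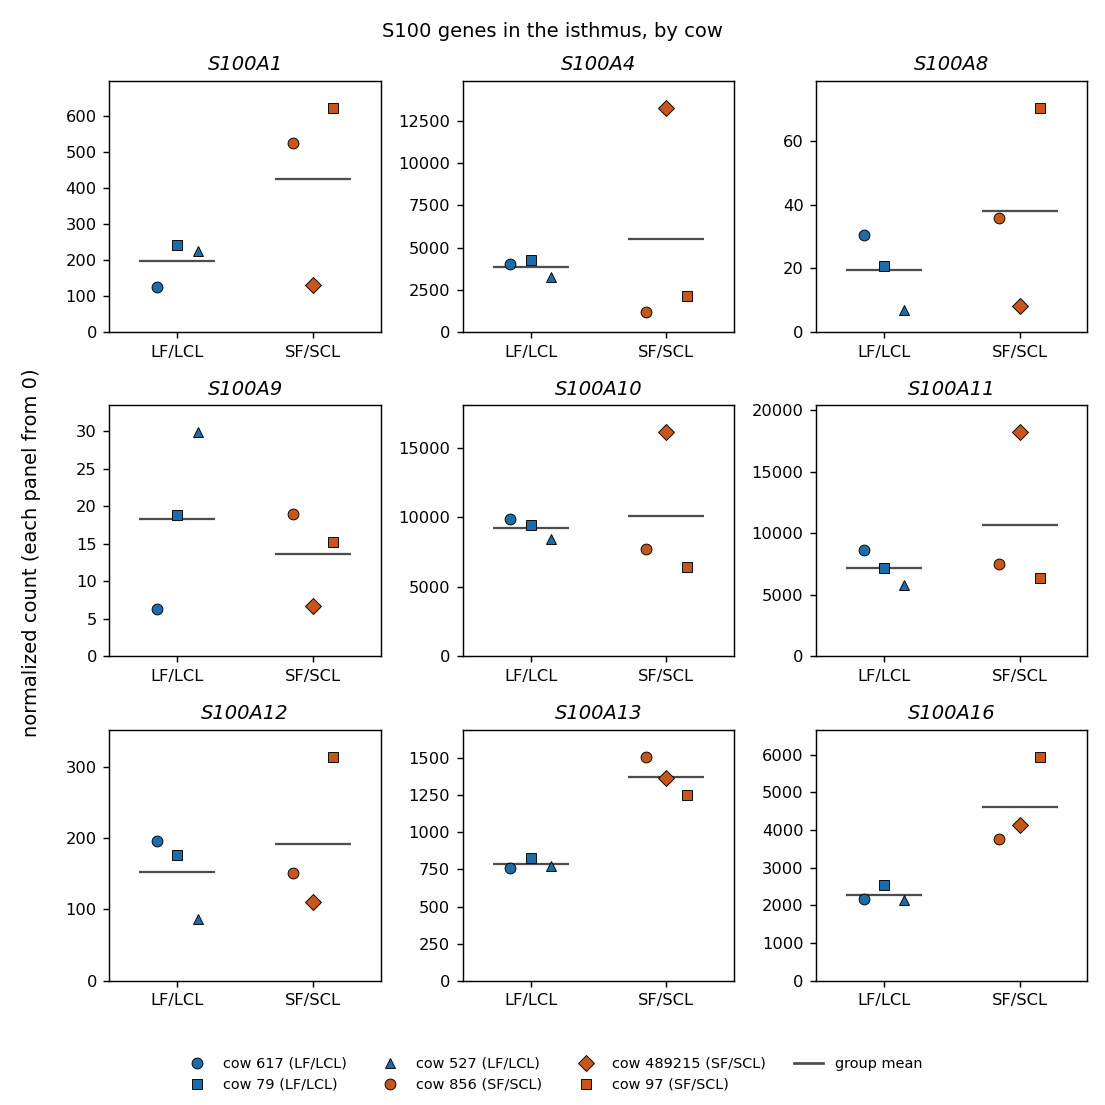
Normalized counts (vertical axes, each panel from 0) of the 9 S100 genes by group, with a point for each cow and a line at the group mean. S100A13 and S100A16 show no overlap between groups, and the diamond of cow 489215 lies far above the other SF/SCL cows for S100A4, S100A10 and S100A11 and below them for S100A1, S100A8, S100A9 and S100A12.

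**Figure D2:**
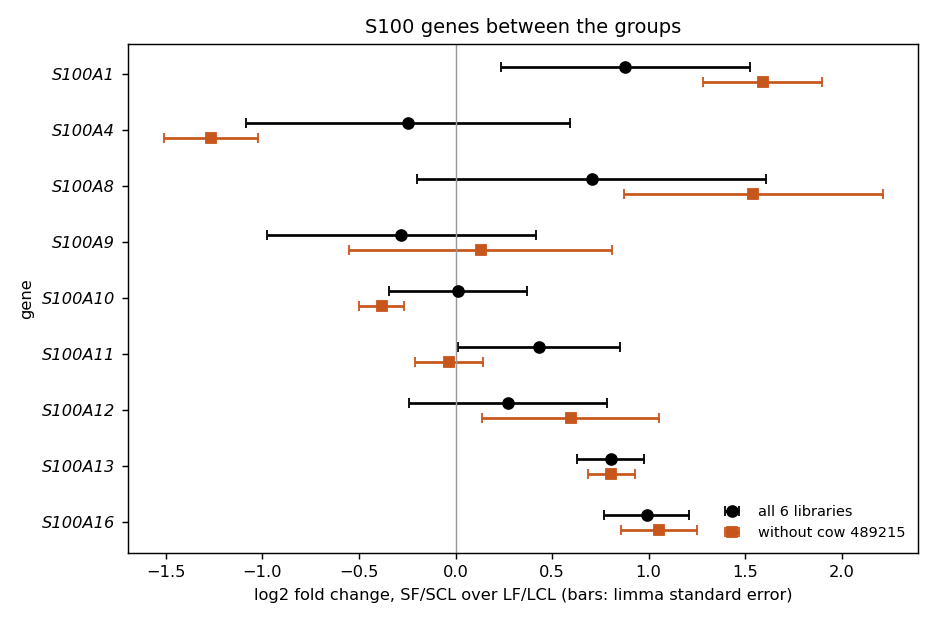
Log2 fold changes of SF/SCL over LF/LCL (horizontal axis) for the 9 S100 genes, as points with bars of 1 limma standard error, with all 6 libraries (black) and without cow 489215 (orange). S100A13 stays at 0.80 and 0.81, while S100A1 moves from 0.88 to 1.59 and S100A4 from -0.25 to -1.27.

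S100A13 takes part in the release of FGF1 and of interleukin 1 alpha, which leave the cell without a signal peptide. Its normalized counts (ENSBTAG00000021378) were 762, 827 and 772 in LF/LCL cows 617, 79 and 527, and 1512, 1365 and 1254 in SF/SCL cows 856, 489215 and 97. The 3 LF/LCL cows lay close together, and the lowest SF/SCL cow was above all of them. The means were 787 ± 35.0 and 1377 ± 129.6 (SD, n = 3 each), 1.75-fold higher in SF/SCL. Between the groups, the log2 fold change was 0.80 (SE 0.18), with an adjusted p of 0.367 in limma with Benjamini-Hochberg adjustment, 0.00131 in DESeq2 and 0.00886 in limma without cow 489215, and the adjusted p ran from 0.00131 to 0.999 over 16 alternatives. Leaving out each cow in turn kept the log2 fold change between 0.73 and 0.87. Cow 489215 had 0.987 times the mean of the other SF/SCL cows, so this gene did not share in the departure of that library.

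S100A16 is a widely expressed S100 protein that is abundant in epithelium. Its normalized counts (ENSBTAG00000014204) were 2176, 2531 and 2138 in LF/LCL cows 617, 79 and 527, and 3757, 4141 and 5949 in SF/SCL cows 856, 489215 and 97. Every SF/SCL cow was above every LF/LCL cow, with cow 97 the highest of all. The means were 2281 ± 217 and 4615 ± 1171 (SD, n = 3 each), 2.02-fold higher in SF/SCL. In limma the log2 fold change was 0.99 (SE 0.22), with an adjusted p of 0.369 in limma with Benjamini-Hochberg adjustment, 0.0126 in DESeq2 and 0.0172 in limma without cow 489215, and the adjusted p ran from 0.00145 to 0.999 over 16 alternatives. Leaving out each cow in turn kept the log2 fold change between 0.79 and 1.13. In the RefSeq annotation of the Tharparkar assembly NIAB-ARS_B.indTharparkar_mat_pri_1.0, S100A16 overlaps a locus named LOC139182119, and reads of the pair could not be separated if counting ignored the strand.

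In that annotation S100A1, S100A13, S100A14, S100A16, S100A2, S100A3, S100A4 and S100A5 are consecutive protein-coding genes in this order. S100A14, the gene between S100A13 and S100A16 and another epithelial S100 protein, was measured in addition to the 9 genes. Its normalized counts were 970.3, 1035 and 961 in LF/LCL cows 617, 79 and 527, and 1479, 1323 and 2142 in SF/SCL cows 856, 489215 and 97, again without overlap. The means were 989 ± 40.5 and 1648 ± 434 (SD, n = 3 each), and the log2 fold change was 0.71 (SE 0.23), with an adjusted p of 0.454 in limma with Benjamini-Hochberg adjustment and 0.0191 without cow 489215 (0.00163 to 0.999 over 16 alternatives). S100A13, S100A14 and S100A16 thus each lay higher in every SF/SCL cow, as did 9.51% of all genes tested. S100A14 was named because its unadjusted p-value in limma was under 0.05 in these same libraries. Its separation therefore adds no support for a pattern of adjacent genes. The nearby genes S100A1, S100A2, S100A3 and S100A4 overlapped between the groups with all 6 libraries. Without cow 489215 S100A1 was called higher and S100A4 lower in SF/SCL.

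Some markers of epithelium moved with these genes. The summed normalized count of the 9 epithelial marker genes was 29000.2 to 46341 in LF/LCL and 50425 to 72610 in SF/SCL, without overlap, and EPCAM, KRT7, KRT8 and KRT18 each were higher in every SF/SCL cow. The other 5 markers (KRT19, CLDN3, CLDN4, ELF3 and PAX8) overlapped between the groups. ELF3 had a log2 fold change of -0.54 and CLDN4 of -0.07, and without cow 489215 these were -1.09 and -0.88. Relative to EPCAM, an epithelial adhesion molecule, S100A13 was 0.0620 to 0.0905 in LF/LCL and 0.0665 to 0.0953 in SF/SCL. The ratio of S100A16 to EPCAM was 0.177 to 0.255 in LF/LCL and 0.204 to 0.316 in SF/SCL, and that of S100A14 to EPCAM was 0.0790 to 0.113 and 0.0652 to 0.114. Per unit of EPCAM, the groups thus overlapped for all 3 genes. In whole tissue a larger number of cells of a type and more RNA per cell cannot be told apart, and the part of epithelial content in these differences was not tested.

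S100A1 binds the sarcoplasmic calcium pump ATP2A2 and the ryanodine receptor RYR2 and is best known from striated muscle. Its normalized counts (ENSBTAG00000005163) were 125, 241 and 224 in LF/LCL cows 617, 79 and 527, and 523, 129 and 622 in SF/SCL cows 856, 489215 and 97. SF/SCL cows 856 and 97 were above all LF/LCL cows, and cow 489215 lay beside the lowest of them. The means were 197 ± 63.0 and 425 ± 261 (SD, n = 3 each). SF/SCL over LF/LCL, the log2 fold change was 0.88 (SE 0.65), with an adjusted p of 0.801 in limma with Benjamini-Hochberg adjustment, and without cow 489215 it was 1.59 (SE 0.31), with an adjusted p of 0.0189, a 2.91-fold difference (0.00360 to 0.999 over 16 alternatives). S100A1 was thus called higher in SF/SCL with that cow left out and was not called with it.

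Ciliated cell genes were also highest in cows 856 and 97. Their summed normalized count was 17510 to 20819 in LF/LCL, 41278 and 45241 in SF/SCL cows 856 and 97, and 12772 in cow 489215. In cow 489215 FOXJ1, DNAH5 and DNAH9 were below every LF/LCL cow, whereas DNAI1 (783) and CCDC39 (1744) were above them, and these were the 2 ciliated genes that did not overlap between the groups. The ratio of S100A1 to FOXJ1, the transcription factor of motile ciliogenesis, was 0.0198 to 0.0652 in LF/LCL and 0.0435 to 0.0554 in SF/SCL. All SF/SCL ratios to this gene fell within the LF/LCL range. Ratios of S100A1 to the other ciliated genes were not computed, and DNAI1 and CCDC39 did not fall with FOXJ1 in cow 489215. The sum of mesothelial genes also split the cows this way, with 2958 to 3434 in LF/LCL, 28237 and 27614 in SF/SCL cows 856 and 97, and 3559 in cow 489215. That sum was mostly MSLN and WT1, while LRRN4 was 175 to 412 in LF/LCL and 3.80 to 16.3 in SF/SCL and BNC1 was 68.0 to 97.6 and 15.98 to 23.5. Of the 8 mesothelial genes, 1 (BNC1) passed the filter. The part of ciliated or mesothelial content in the S100A1 and S100B values was not tested.

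**Figure D3:**
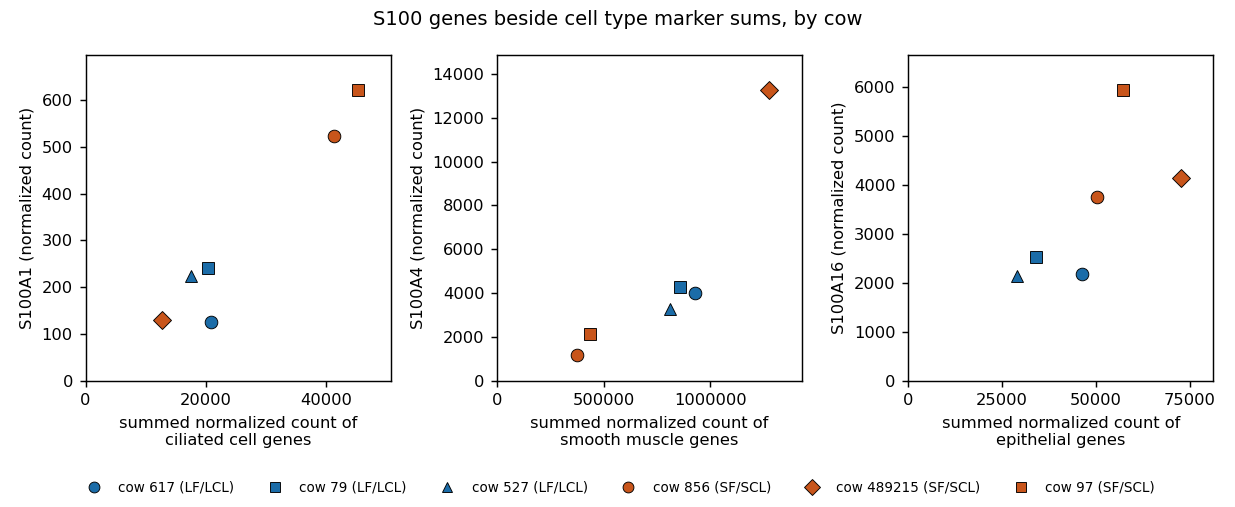
Normalized counts of S100A1, S100A4 and S100A16 (vertical axes) against the summed normalized counts of ciliated cell, smooth muscle and epithelial marker genes (horizontal axes), with a point for each cow. Cow 489215 has the lowest ciliated sum, the highest smooth muscle sum and the highest epithelial sum of the 6 cows, and it has the highest S100A4. Its MYH11, MYLK and SYNPO2, which are part of the smooth muscle sum, are below those of every LF/LCL cow.

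S100A4 binds non-muscle myosin and is associated with cell movement and with fibroblasts. Its normalized counts (ENSBTAG00000019203) were 4014, 4274 and 3276 in LF/LCL cows 617, 79 and 527, and 1195, 13284 and 2119.9 in SF/SCL cows 856, 489215 and 97. The LF/LCL cows lay between the extremes of the SF/SCL group, with cow 489215 8.02 times the mean of the other SF/SCL cows. The means were 3855 ± 517 and 5533 ± 6729 (SD, n = 3 each). The log2 fold change was -0.25 (SE 0.84), with an adjusted p of 0.958 in limma with Benjamini-Hochberg adjustment, and it was 0.47 in edgeR and 0.52 in DESeq2, so its direction depended on the method. Without cow 489215 it was -1.27 (SE 0.25), with an adjusted p of 0.0191 (0.0132 to 0.999 over 14 alternatives), and LF/LCL was 2.33-fold higher. S100A4 failed the filter, with an SD above its mean, when LF/LCL cow 617 or 79 was left out.

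Smooth muscle and fibroblast sums were also lowest in cows 856 and 97. The smooth muscle sum was 808563 to 926324 normalized counts in LF/LCL, 375799 and 436809 in SF/SCL cows 856 and 97, and 1275159 in cow 489215. The smooth muscle genes did not move together in cow 489215. There ACTA2 (533926) was above every LF/LCL cow, whereas MYH11 (116653), MYLK (47882) and SYNPO2 (9453) were below every LF/LCL cow. The fibroblast sum was 107871 to 141365 in LF/LCL, 67919 and 67652 in SF/SCL cows 856 and 97, and 100658 in cow 489215. The part of muscle or fibroblast content in the S100A4 values was not tested. The ratio of S100A4 to the smooth muscle actin gene ACTA2 was 0.0129 to 0.0143 in LF/LCL and 0.0116 to 0.0249 in SF/SCL. It was highest in cow 489215, and the groups overlapped.

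S100A10 forms a complex with annexin A2 at the cell membrane, where it binds plasminogen and its activator. Its normalized counts (ENSBTAG00000015147) were 9850.1, 9420.0 and 8404 in LF/LCL cows 617, 79 and 527, and 7745, 16111 and 6429 in SF/SCL cows 856, 489215 and 97. Cows 856 and 97 were below all LF/LCL cows, and cow 489215 was 2.27 times their mean. The means were 9225 ± 743 and 10095 ± 5251 (SD, n = 3 each). Between the groups, the log2 fold change was 0.01 (SE 0.36), with an adjusted p of 0.994 in limma with Benjamini-Hochberg adjustment, and -0.38 (SE 0.12), with an adjusted p of 0.0715, without cow 489215 (0.0165 to 0.999 over 16 alternatives). S100A10 was thus not called in either fit.

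S100A11 binds annexin A1 and lies beside S100A10 in RefSeq. Its normalized counts (ENSBTAG00000015145) were 8649, 7164 and 5772 in LF/LCL cows 617, 79 and 527, and 7499, 18228 and 6402 in SF/SCL cows 856, 489215 and 97. Cows 856 and 97 lay within the LF/LCL range, and cow 489215 was 2.62 times their mean. The means were 7195 ± 1439 and 10709.6 ± 6534 (SD, n = 3 each). In limma the log2 fold change was 0.43 (SE 0.42), with an adjusted p of 0.859 in limma with Benjamini-Hochberg adjustment, and -0.03 (SE 0.18), with an adjusted p of 0.914, without cow 489215 (0.660 to 0.999 over 16 alternatives).

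A ratio of a pair of genes within a library does not depend on how the library was scaled. In all, 14 such ratios were computed, chosen with the values known, and the groups were separate for 3 of them. Of single genes, 18.1% of all those tested were separate, and the share over all pairs of genes was not computed. The ratio of S100A10 to S100A11 was 1.14 to 1.46 in LF/LCL and 0.884 to 1.03 in SF/SCL, with cow 489215 the lowest. The ratio of S100A10 to its partner ANXA2 was 0.371 to 0.453 in LF/LCL and 0.269 to 0.326 in SF/SCL. S100A10 was therefore lower relative to S100A11 and to ANXA2 in each SF/SCL cow, cow 489215 included, although its own level overlapped between the groups. The ratio of S100A11 to ANXA1 was 1.06 to 1.15 in LF/LCL and 0.803 to 1.55 in SF/SCL.

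ANXA2 had normalized counts of 26577, 25062 and 18534 in LF/LCL cows 617, 79 and 527 and of 24309, 49359 and 23891 in SF/SCL cows 856, 489215 and 97, with the high value again in cow 489215. Its log2 fold change was 0.41 (SE 0.35), with an adjusted p of 0.836 in limma with Benjamini-Hochberg adjustment and 0.828 without that cow (0.720 to 0.999 over 16 alternatives). ANXA1 had a log2 fold change of 0.39 (SE 0.26), with an adjusted p of 0.772 by the same test (0.176 to 0.999 over 16 alternatives).

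S100A8 forms with S100A9 the heterodimer calprotectin, which binds zinc and calcium and is abundant in neutrophils. Its normalized counts (ENSBTAG00000012640) were 30.4, 20.65 and 7.03 in LF/LCL cows 617, 79 and 527, and 35.7, 7.99 and 70.4 in SF/SCL cows 856, 489215 and 97. Cows 856 and 97 were above all LF/LCL cows, and cow 489215 was near the lowest of them. The value of cow 489215 rested on 6 reads (95% interval 2.20 to 13.1) and that of cow 97 on 65 reads (50.2 to 82.8). SF/SCL over LF/LCL, the log2 fold change was 0.70 (SE 0.90), with an adjusted p of 0.890 in limma with Benjamini-Hochberg adjustment, and 1.54 (SE 0.67), with an adjusted p of 0.162, without cow 489215 (0.0313 to 0.999 over 16 alternatives).

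S100A9, the other chain of calprotectin (ENSBTAG00000006505), had normalized counts of 6.28, 18.8 and 29.9 in LF/LCL cows 617, 79 and 527, and of 19.0, 6.66 and 15.2 in SF/SCL cows 856, 489215 and 97. The SF/SCL cows all fell within the LF/LCL range. The library with the fewest reads of S100A9 had 5 (95% interval 1.62 to 11.7) and that with the most had 34. The log2 fold change was -0.28 (SE 0.70), with an adjusted p of 0.939 in limma with Benjamini-Hochberg adjustment (0.802 to 0.999 over 16 alternatives). S100A8 and S100A9 did not keep a fixed proportion, since the ratio of S100A8 to S100A9 ranged 20.5-fold between cows, from 0.235 in LF/LCL cow 527 to 4.83 in LF/LCL cow 617.

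S100A12, a further neutrophil S100 protein and a ligand of AGER, had normalized counts (ENSBTAG00000012638) of 196, 176 and 86.1 in LF/LCL cows 617, 79 and 527, and of 150.4, 111 and 314 in SF/SCL cows 856, 489215 and 97. The groups overlapped, with cow 97 the highest, as it was for S100A8. The means were 152 ± 58.4 and 192 ± 108 (SD, n = 3 each). Between the groups, the log2 fold change was 0.27 (SE 0.51), with an adjusted p of 0.916 in limma with Benjamini-Hochberg adjustment and 0.409 without cow 489215 (0.109 to 0.999 over 16 alternatives). With all 6 libraries the difference between the groups was smaller than its standard error for all 3 neutrophil S100 genes. Without cow 489215 S100A8 was higher in both SF/SCL cows than in every LF/LCL cow (27.1% of all genes), while S100A9 and S100A12 overlapped. Limma with array weights called S100A8, among 4581 of the 15387 genes tested.

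Granulocyte markers were sparse, and macrophage and monocyte markers were not. Of 13 granulocyte markers 11 had an entry and 4 passed the filter, CATHL1 was at 0 in every library, and CXCR2, MPO, MMP8 and MMP9 were at 0 in some. Their sum was 2966 to 23682 normalized counts in LF/LCL, 3718 and 5057 in SF/SCL cows 856 and 97, and 754 in cow 489215. Lactoferrin (LTF), which epithelium also makes, was 53.2% to 97.3% of this sum in every library, and the highest sum, in LF/LCL cow 79, held 23051 of LTF. Without LTF the sum was 297, 632 and 625 in LF/LCL cows 617, 79 and 527 and 794, 353 and 562 in SF/SCL cows 856, 489215 and 97. The 8 macrophage and monocyte markers with an entry, of 10, all passed the filter. The macrophage and monocyte sum was 1620.2 to 3262 in LF/LCL and 1305 to 3097 in SF/SCL, lowest in cow 489215, in which the 3 neutrophil S100 genes were lower than in the other SF/SCL cows. These markers did not move together in cow 489215. CD163, CSF1R, CD68, LYZ and TYROBP were lowest there, AIF1 and CD14 lay within the LF/LCL range, and FCER1G (332) was highest. The lymphocyte sum was 1821 to 2376 in LF/LCL and 1807 to 2549.6 in SF/SCL. The part of leukocyte content in the S100A8, S100A9 and S100A12 values was not tested.

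**Figure D4:**
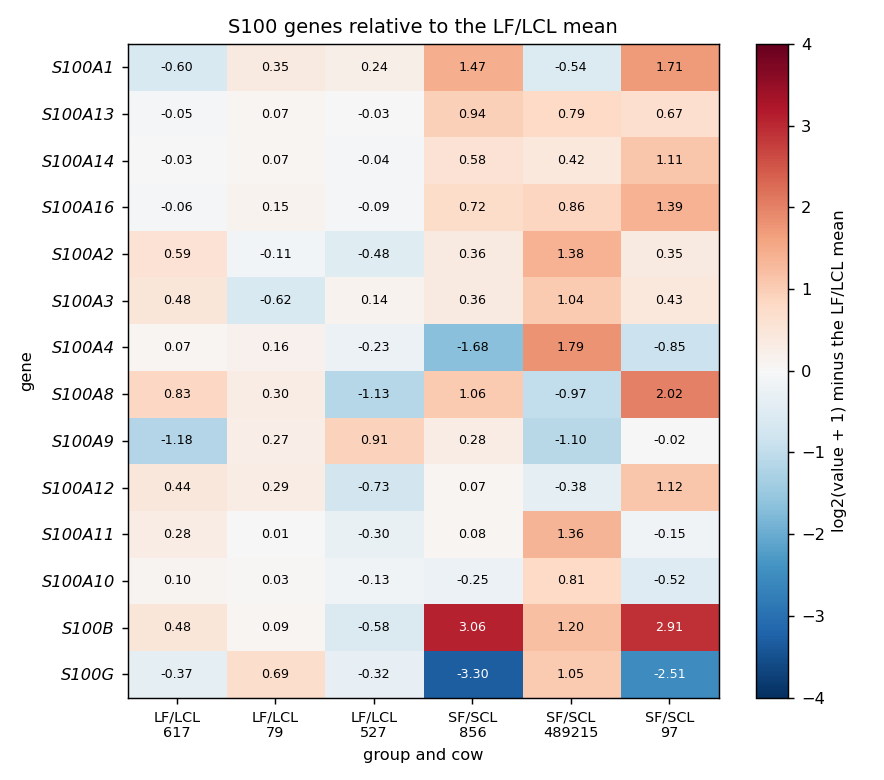
Log2(value + 1) of each S100 gene in each cow (columns) minus the LF/LCL mean of the gene (color and printed number), for the 9 genes and 5 other S100 genes that passed the filter. S100A13, S100A14 and S100A16 are above 0 in every SF/SCL cow, and S100B ranges from 1.20 to 3.06 there.

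Of 9 other S100 genes looked up by symbol, 8 had an entry and 5 passed the filter. S100A14 and S100B were past an unadjusted p-value of 0.05 (8.66% of all genes) and did not overlap between the groups (18.1% of all genes), and 0 passed after adjustment in limma. DESeq2 called S100B (2.66% of all genes), and without cow 489215 limma called S100A14, S100B and S100G (18.2% of all genes). S100A2 and S100A3 overlapped between the groups, with log2 fold changes of 0.70 and 0.61.

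S100B, known from glial and Schwann cells, was the S100 gene with the largest log2 fold change among the 14 tested. Its normalized counts were 5399.7, 4115 and 2584 in LF/LCL cows 617, 79 and 527, and 32285, 8852 and 29027 in SF/SCL cows 856, 489215 and 97. Every SF/SCL cow was above every LF/LCL cow, with cow 489215 the closest to them. In limma the log2 fold change was 2.39 (SE 0.55), with an adjusted p of 0.381 in limma with Benjamini-Hochberg adjustment, and 2.99 (SE 0.29), with an adjusted p of 0.00270, without cow 489215 (2.28e-04 to 0.999 over 14 alternatives). S100B failed the filter, with an SD above its mean, when SF/SCL cow 856 or 97 was left out, so it was not tested there. The Schwann cell sum was 627 to 1063 in LF/LCL, 606 and 591 in SF/SCL cows 856 and 97, and 398 in cow 489215. The part of Schwann cell content in the S100B values was not tested. The ratio of S100B to FOXJ1 was 0.752 to 0.860 in LF/LCL and 2.59 to 3.39 in SF/SCL, without overlap and highest in cow 489215.

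S100G, a vitamin D-dependent calcium buffer of epithelium that steroid hormones regulate in the uterus, had the largest fold between cow 489215 and the rest of its group among the 14 S100 genes tested. Its normalized counts were 622, 1292 and 642 in LF/LCL cows 617, 79 and 527, and 80.5, 1659 and 139.8 in SF/SCL cows 856, 489215 and 97. Cows 856 and 97 were far below the LF/LCL cows, and cow 489215 was above them, at 15.1 times the mean of cows 856 and 97. SF/SCL over LF/LCL, the log2 fold change was -1.59 (SE 1.10), with an adjusted p of 0.781 in limma with Benjamini-Hochberg adjustment. Without cow 489215 it was -2.91 (SE 0.39), with an adjusted p of 0.00630 by the same test (0.00157 to 0.999 over 15 alternatives, of which DESeq2 gave no p-value). S100G failed the filter, with an SD above its mean, when LF/LCL cow 79 was left out. In the RefSeq annotation named above, S100G overlaps CTPS2, and reads of the pair could not be separated if counting ignored the strand.

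The products that S100 proteins bind or signal through were followed in a list of 19 genes, of which 18 passed the filter. With all 6 libraries 0 passed after adjustment in limma, 4 passed at an unadjusted p-value under 0.05 (8.66% of all genes), and DESeq2 called 2, PLAT and RYR2 (2.66% of all genes). Values were separate for 7 of the 18, against 18.1% of all genes. CACYBP, SUGT1, CD36 and PLAT were the 4 higher in SF/SCL, and ANXA6, RYR2 and ATP2A2 the 3 higher in LF/LCL. The receptors AGER and TLR4 had log2 fold changes of -0.12 (SE 0.39) and -0.09 (SE 0.22), whose signs changed with the setting. Without cow 489215 limma called 5 (18.2% of all genes), with CD36 and PLAT higher in SF/SCL and ANXA6, BSG and RYR2 higher in LF/LCL.

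PLAT, the tissue plasminogen activator that the S100A10 and annexin A2 complex binds, had normalized counts of 1939, 1549.7 and 1465 in LF/LCL cows 617, 79 and 527 and of 3682, 2954 and 3929.7 in SF/SCL cows 856, 489215 and 97. Every SF/SCL cow was higher, 2.13-fold on the means. The log2 fold change was 1.09 (SE 0.20), with an adjusted p of 0.351 in limma with Benjamini-Hochberg adjustment, equal to the smallest over all genes tested, and 0.00395 without cow 489215 (3.22e-04 to 0.999 over 16 alternatives).

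RYR2, the ryanodine receptor that releases calcium from the sarcoplasmic reticulum and a target of S100A1, had normalized counts of 399, 391 and 546 in LF/LCL cows 617, 79 and 527 and of 141, 165 and 219 in SF/SCL cows 856, 489215 and 97. Every SF/SCL cow was lower, and the LF/LCL mean was 2.54-fold higher. Between the groups, the log2 fold change was -1.35 (SE 0.29), with an adjusted p of 0.367 in limma with Benjamini-Hochberg adjustment and 0.0186 without cow 489215 (0.00151 to 0.999 over 16 alternatives). Cow 489215 had the highest smooth muscle sum of the 6 cows, through ACTA2, TAGLN, DES and CNN1, but its MYH11, MYLK and SYNPO2 were below those of every LF/LCL cow, as its RYR2 was. The part of muscle content in RYR2 was not tested.

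ANXA6, a calcium-dependent membrane-binding annexin, had normalized counts of 9320.5, 9729 and 9263 in LF/LCL cows 617, 79 and 527 and of 4755, 8471 and 4266 in SF/SCL cows 856, 489215 and 97. All SF/SCL cows were lower, with cow 489215 near the LF/LCL cows. In limma the log2 fold change was -0.76 (SE 0.28), with an adjusted p of 0.514 in limma with Benjamini-Hochberg adjustment and 0.00237 without cow 489215 (3.11e-04 to 0.999 over 16 alternatives). CD36, a fatty acid receptor that takes up lipid carried by S100A8 and S100A9, had a log2 fold change of 0.53 (SE 0.22), with an adjusted p of 0.558 by the same test and 0.0218 without that cow (0.00415 to 0.999 over 16 alternatives). BSG, a receptor of S100A9, had a log2 fold change of 0.01 (SE 0.41), and without cow 489215 of -0.45 (SE 0.11), with an adjusted p of 0.0392 in limma with Benjamini-Hochberg adjustment (0.0379 to 0.999 over 16 alternatives).

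**Figure D5:**
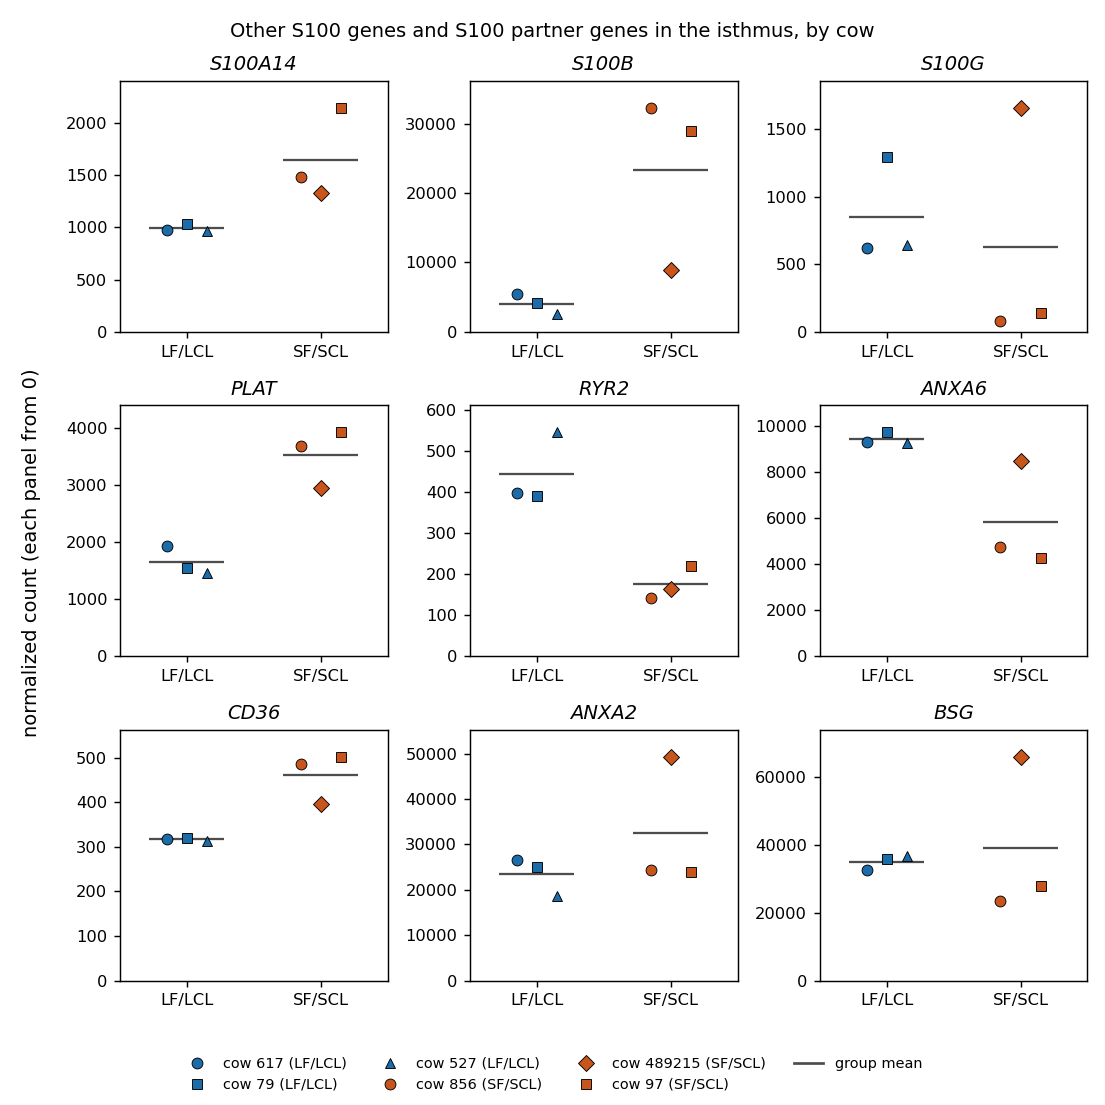
Normalized counts (vertical axes, each panel from 0) of the other S100 genes S100A14, S100B and S100G and of 6 partner genes by group, with a point for each cow and a line at the group mean. PLAT, CD36, S100A14 and S100B are higher in every SF/SCL cow and RYR2 and ANXA6 in every LF/LCL cow. All genes shown but S100B and ANXA2 were named by p-values in these same libraries. Of all genes tested, 18.1% did not overlap between the groups.

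Added up, the 9 S100 genes gave 25807, 24672 and 20709 normalized counts in LF/LCL cows 617, 79 and 527 and 22436, 53382 and 23175 in SF/SCL cows 856, 489215 and 97. Cow 489215 was above the other 5 cows, which overlapped. The difference of the mean log2 sums was 0.36 with all 6 libraries and -0.05 without cow 489215. S100A10 made up 27.7% to 40.6% of the reads summed over the 9 genes and S100A11 27.6% to 34.1%, with S100A4 at 5.33% to 24.9% and S100A16 at 7.76% to 25.7%, so that the sum mostly followed these 4 genes. The coefficient of variation over cows ran from 4.44% to 64.5% in LF/LCL and from 9.41% to 122% in SF/SCL over the 9 genes, and without cow 489215 it ran from 11.2% to 49.9% in SF/SCL.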

How the data were processed

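RNA of the isthmus of 6 cows was sequenced in paired-end polyA libraries. Per the methods of the study, the authors used seqyClean for read cleaning, TopHat with Bowtie2 for alignment to a masked copy of the UMD3.1 assembly and HTSeq for counting uniquely mapped reads by gene. The deposited signal values are the resulting counts after division by the DESeq size factor of the library. Whether counting used the strand is not given in the sources used here. The cows are Bos indicus, while the assembly is of Bos taurus, so a gene that differs in sequence may lose reads in all libraries alike.

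Each deposited value is a whole multiple of a step, and 147696 of 147696 values (100.0%) gave whole reads within 0.01 read. Totals were 23899117 to 34193164 reads, and size factors ran from 0.751 (cow 489215) to 1.32 (cow 856).

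The filter asked for a mean over 5 that also exceeded the SD, and kept 15387 of 24616 genes. Log2(value + 1) was tested with limma 3.58.1 (lmFit, eBayes with trend and robust) for SF/SCL against LF/LCL without covariates, with Benjamini-Hochberg adjustment over all genes tested and a threshold of 0.05. Fold changes on this scale understate those of low genes, such as S100A8 and S100A9. On recovered reads, edgeR 4.0.16 (quasi-likelihood) and DESeq2 1.42.0 were alternatives, as were other pseudocounts, filters and normalizations, array weights and leaving out each cow. The tests were checked on simulated data.

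S100A14 and other S100 genes, partner genes and marker lists were looked up by symbol. Named genes were the 9 S100 genes, the other S100 and partner genes past an unadjusted p-value of 0.05 with all libraries or an adjusted p-value of 0.05 without 1 library, and S100B, ANXA2, ANXA1, AGER and TLR4 in any case. S100A2 and S100A3 were added as neighbours after their values were seen. The members and all lists were chosen with earlier results of these data known. The neighbouring genes come from RefSeq on another assembly, so no positions are given, and no sequence is printed.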

Additional observations from a re-analysis of the deposited data

How the results depend on the processing

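S100A13 and S100A16 were higher in SF/SCL and past an unadjusted p-value of 0.05 with all libraries and under each of 16 alternatives. After adjustment, 409 genes were called in DESeq2 and 4581 of 15387 in limma with array weights. EdgeR without cow 489215 called 2805 genes, and limma called 0 to 2827 with each cow left out. Of the 9 S100 genes, 2 were called in DESeq2, 6 with array weights, 4 in edgeR without cow 489215 and 0 to 4 with each cow left out, the 4 without cow 489215 and 0 without any other cow. At an unadjusted p-value under 0.05 these were 7 with array weights, 5 in edgeR without cow 489215 and 2 to 5 with each cow left out. Over all genes tested, that threshold counted 6528 of 15387 with array weights and 605 to 5253 with each cow left out. Of the other S100 and partner genes, 3 were called in DESeq2, 8 with array weights, 8 in edgeR without cow 489215 and 0 to 8 with each cow left out. At an unadjusted p-value under 0.05 these were 10 with array weights and 2 to 9 with each cow left out, 3 without LF/LCL cow 527, 3 without SF/SCL cow 856 and 2 without SF/SCL cow 97. The S100 genes without overlap between the groups numbered 2 to 6 with each cow left out, 6 without cow 489215. The estimation of array weights stopped before it reached its tolerance.

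Of 21 named genes, 13 kept their direction in every setting in which they passed the filter, and 25 of 331 recomputed fold changes were reversed. S100A4, S100B and S100G failed the filter in some settings. S100A4 was 0.47 in edgeR with TMM, 0.51 with DESeq2 size factors, 0.27 with library size alone and 0.52 in DESeq2, and -1.27 to 0.47 with each cow left out. S100A10 was -0.0034 in edgeR with library size alone, -0.46 with array weights, -0.38 in edgeR without cow 489215 and -0.38 to 0.28 with each cow left out. S100A11 was -0.092 with array weights, -0.051 in edgeR without cow 489215 and -0.035 to 0.72 with each cow left out. S100A9 ran from -0.87 to 0.17 and S100A12 from -0.15 to 0.60 with each cow left out. BSG was -0.37 with array weights, -0.45 in edgeR without cow 489215 and -0.45 to 0.30 with each cow left out. AGER was 0.083 with array weights and -0.37 to 0.18 with each cow left out, and TLR4 ran from -0.22 to 0.034. The cause of these changes was not tested.

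The difference of the summed S100 level was 0.36 with all 6 libraries. It ran from -0.05 without cow 489215 to 0.57 with each cow left out, so its sign depended on that cow. Each alternative moved it by less than 1 SD between cows, but that SD includes the high sum of cow 489215. With S100A8 at 6 to 65 reads and S100A9 at 5 to 34 reads in a library, counting error limits both genes. No paired analysis was possible because the groups share no cow numbers. With 1 library for each cow and no batch named in the labels, no value within batches could be given.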
